A study of Zea mays with 24 samples.

Results

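The comparison described here set young shoots of the maize (Zea mays) cultivar ST against roots of the same cultivar, both from seedlings that had received water. It contrasted 6 of the 24 RNA sequencing libraries of the study, the 3 labelled ST, young shoot and water against the 3 labelled ST, root and water. All 6 came from seedlings at the 3-leaf stage. No transgene, mutation or inhibitor is named for either group, and the labels do not say whether ST is an inbred or a hybrid, how many seedlings gave a library or when the tissue was cut. All 24 libraries set which features were tested and the estimate of the spread, and in a fit of the 6 alone 23141 of 25581 features were called. Values of other libraries are given only for the same tissue difference, in shoots (3) and roots (3) of ST given a solution of 100 mM salinity, and shoots (3) and roots (3) of the cultivar SS given water. Levels are FPKM, the fragments per kilobase of a feature, scaled to the library total. Of 50202 features listed, 29127 reached 1 FPKM in at least 3 of the 24 libraries and were tested.

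Young shoots and roots of a grass seedling differ in almost every task. Shoots intercept light, fix carbon and build leaves from a meristem at their base, and the proteins of photosynthesis are made there in very large amounts. Roots take up water and ions, grow from a tip meristem, carry hairs and live on sugar sent down from the shoot. Both are mixtures of cell types, so in these bulk samples a larger number of cells of a type and more RNA per cell of that type cannot be told apart. The deposited identifiers paired with gene names only for microRNA precursor genes. The tissue labels therefore could not be checked against named leaf or root marker genes, and most of what follows is given by level and by identifier class, with the microRNA precursors by name.

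The 6 libraries fell into the 2 labelled tissues. Across the tested features, log2(FPKM + 1) values correlated at 0.9953 to 0.9958 among shoot libraries, at 0.9932 to 0.9953 among root libraries and at 0.628 to 0.635 between a shoot and a root library. The features shared length and annotation, so these coefficients describe likeness only. ST shoots given water were closer to ST shoots given salinity (0.978 to 0.979) and to SS shoots given water (0.843 to 0.848) than to ST roots. Whole reads could be recovered from the FPKM values, with library totals of 24502442 to 26611690 in shoots and 24832872 to 27131033 in roots. Chi-square values per degree of freedom between replicates were 2.02 to 2.31 in shoots and 3.23 to 8.32 in roots, where root library 1 gave both higher values. Replicates thus differed by more than counting noise, and none was treated as a duplicate.

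Shoot RNA was concentrated in far fewer features than root RNA. The most abundant feature took 1.5, 1.53 and 1.53% of the reads in the shoot libraries, against 1.13, 0.959 and 0.962% in the root libraries. The top 10 features of each library took 9.55, 9.62 and 9.78% in shoots, against 3.91, 3.75 and 3.85% in roots. The top 100 took 27.5, 27.7 and 28.1% in shoots, against 11.8, 11.8 and 12.1% in roots. In each of these measures every shoot library lay above every root library. The features that together held 50% of the reads numbered 812 ± 19.1 in shoots and 2249 ± 34.2 in roots (SD, n = 3 each). The exact two-sided permutation test over the 6 libraries gave p = 0.1, the smallest value that 3 against 3 allows. Fewer features were detected in shoots. Values of at least 1 FPKM, as deposited, were reached by 21868, 21810 and 21790 features in shoot libraries. In root libraries 24491, 24536 and 24455 features reached them, at similar depth.

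**Figure D1:**
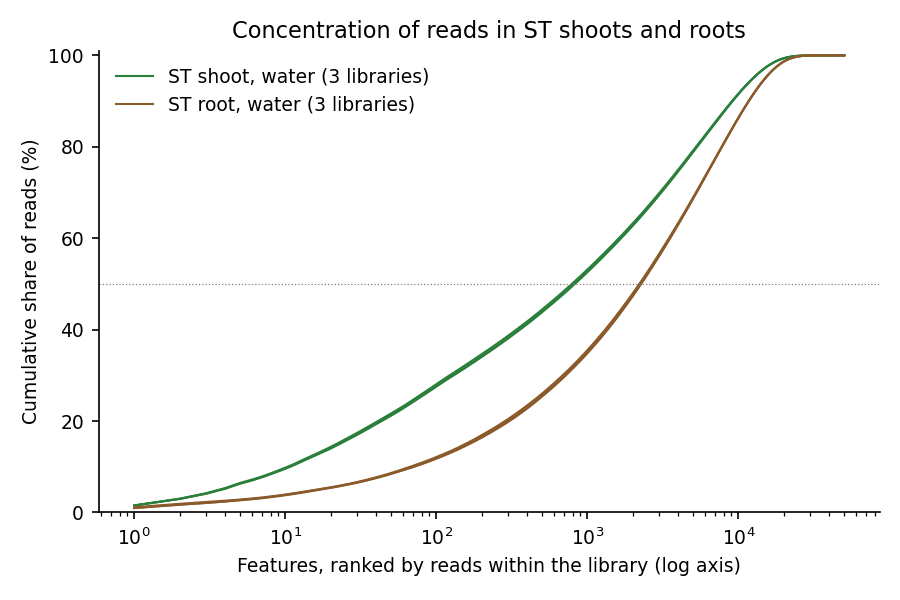
Cumulative share of reads (%) against features ranked by their reads within each library (log axis), for 3 ST shoot libraries and 3 ST root libraries under water. The shoot curves cross 50% at 791 to 828 features and the root curves at 2210 to 2272.

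The curves of the cumulative share separate at the first features and meet only where nearly all reads are counted. The same concentration appeared in libraries that this comparison does not use. In ST under salinity the top 100 features took 27.7 to 28.0% of shoot reads and 11.2 to 12% of root reads. In SS under water they took 21.4 to 22.7% of shoot reads and 12.4 to 12.5% of root reads. FPKM is a share of the library total, and the part of this concentration in the many lower calls given next was not tested.

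The abundant classes of the tissues had few features in common. Of the 100 features with the highest mean FPKM in shoots and the 100 with the highest in roots, 17 were the same. The shoot set had a median of 2051 FPKM in shoots and 12.4 FPKM in roots, and carried 26.1 to 26.7% of shoot reads against 4.07 to 4.24% of root reads. The root set had a median of 216 FPKM in shoots and 818 FPKM in roots, and carried 4.92 to 4.93% of shoot reads against 10.2 to 10.4% of root reads. The sets were chosen by these levels, so the contrast is a description. Few of the abundant features were silent elsewhere. Below 1 FPKM in every library of the other tissue lay 4 of the shoot set and 4 of the root set.

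Most tested features differed between the tissues, and the direction of small differences depended on the scaling. On FPKM as deposited, limma called 24786 of 29127 features at an adjusted p under 0.05 (85.1%). Of these, 6271 were higher in shoots (21.5% of the tested) and 18515 were lower (63.6%). Median-of-ratios scaling multiplies each library so that the middle feature is alike in all, and it moved the shoot minus root difference of the features up by a median of 0.56 on the log2 scale. After that scaling, 22967 features were called (78.9%), with 10927 higher in shoots (37.5%) and 12040 lower (41.3%). The median log2 difference was -0.52 as deposited and -0.015 after scaling. Higher calls made up 25.3% of calls as deposited and 47.6% after scaling. Simulated libraries had few of 28733 features changed. There a fit of all 24 made 201 calls, of which 13.4% were false, more than its threshold of 0.05 intends. The share of false calls in the real libraries was not tested, so these counts are better read with the sizes below.

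**Figure D2:**
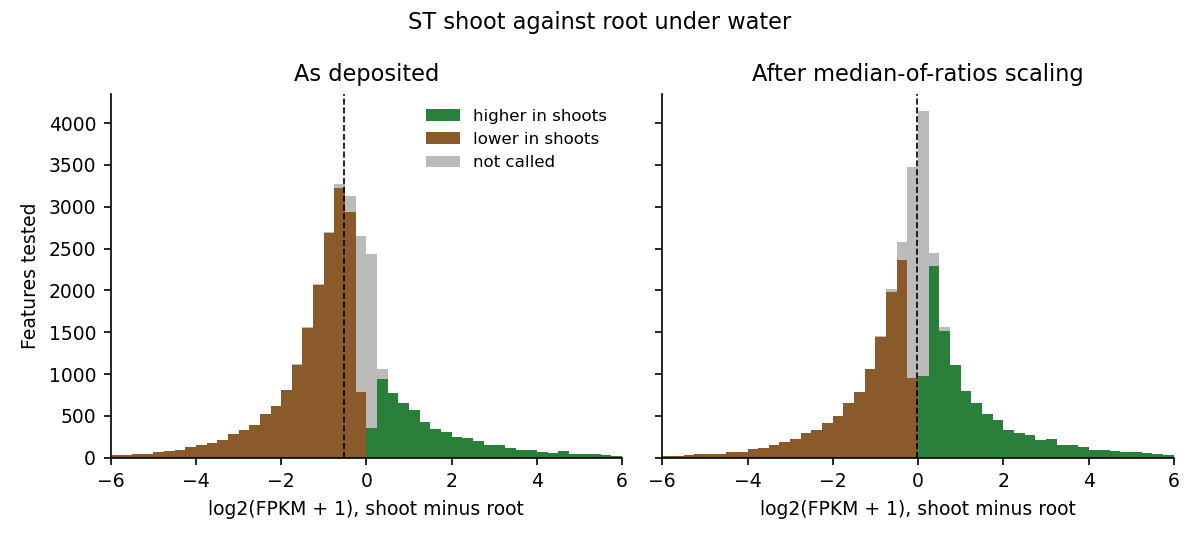
Number of tested features by shoot minus root difference in log2(FPKM + 1) in ST under water, as deposited (left) and after median-of-ratios scaling (right), coloured by call and drawn from -6 to 6. The dashed line is the median, at -0.52 as deposited and at -0.015 after scaling.

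The histograms show the distribution moved toward higher values by scaling. The shift was smaller at low levels. The median log2 difference went from -0.05 to 0 below a mean of 1 FPKM. At 100 FPKM or more it went from -0.72 to -0.05. Under both scalings 18311 features kept a call in the same direction, 6271 higher in shoots (21.5%) and 12040 lower (41.3%). Another 2487 were called lower in shoots as deposited and higher after scaling, and 0 the other way. None of those 2487 differed by more than 0.59 on the log2 scale as deposited. The unscaled libraries of the tissues did not overlap for 24835 features (85.3%), with 6365 wholly above in shoots (21.9%) and 18470 wholly below (63.4%). In the rest of this account a call means a call in the same direction under both scalings.

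At which size higher calls outnumbered lower ones depended on the scaling. As deposited, 3562 features were higher in shoots by 2-fold or more on the log2(FPKM + 1) scale and 8881 were lower. After scaling these counts were 5029 higher and 5300 lower. At 4-fold they were 1905 higher and 3327 lower as deposited, and 2594 higher and 2293 lower after scaling. At 16-fold they were 612 higher and 637 lower as deposited, and 824 higher and 442 lower after scaling. At 64-fold, with 212 higher and 103 lower as deposited and 278 higher and 76 lower after scaling, the higher calls were the more numerous either way. The same held at 256-fold, with 47 higher and 24 lower as deposited and 86 higher and 21 lower after scaling. Features past 2-fold under both scalings were 3562 higher (12.2%) and 5300 lower (18.2%), so that the higher count is bounded by the deposited values and the lower count by the scaled ones.

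By level, the share of higher calls was largest in the most abundant class, while the share of lower calls lay between 41.9 and 49.2% in every class above 1 FPKM. Of the 1188 features whose mean in the 6 libraries reached 100 FPKM, 448 were higher in shoots (37.7%) and 584 were lower (49.2%). Their log2 differences as deposited ran from -5.64 at the 5th percentile to 7.75 at the 95th. Of the 4356 tested features with a mean under 1 FPKM, 15.1% were higher and 29.7% lower, on a log2(FPKM + 1) scale that compresses differences at such levels. In the classes between, from 1 to 5, 5 to 20 and 20 to 100 FPKM, 20.8, 19.2 and 28.0% were higher and 45.0, 41.9 and 42.6% were lower. The 1905 features higher by 4-fold under both scalings had medians of 41.0 FPKM in shoots and 2.09 FPKM in roots. They took 43.2, 43.4 and 43.9% of the shoot reads, against 1.64, 1.69 and 1.66% of the root reads. The 2293 features lower by 4-fold under both had medians of 0.456 FPKM in shoots and 19.6 FPKM in roots. They took 0.856, 0.861 and 0.869% of the shoot reads, against 15.7, 16.3 and 16.9% of the root reads. In shoots 78 of the higher features exceeded 1000 FPKM, while in roots 13 of the lower ones did. These features were chosen by the difference itself, so the shares describe how much of each tissue's RNA they hold. Their median lengths, 1277 and 1280 bases, were alike.

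The features with the widest differences are known here by identifier only, and no function is given for them. Those named were chosen for size, calls under both scalings and libraries without overlap, so these traits describe the choice. Zm00001d037513 (639 bases) had 2081, 2035 and 2123 FPKM in shoots, against 0.315, 0.234 and 0.173 FPKM in roots, where it rested on 5, 4 and 3 reads. The libraries did not overlap, and the mean was 2079 ± 43.8 FPKM in shoots and 0.241 ± 0.0713 FPKM in roots (SD, n = 3 each). The log2 difference was 10.71 with SE 0.17, and limma's adjusted p was 3.93e-23. Zm00001d011285 (795 bases) had 8971, 8938 and 9169 FPKM in shoots, against 4.05, 7.05 and 5.24 FPKM in roots, again without overlap. Its log2 difference was 10.48 with SE 0.16 (limma, adjusted p = 1.42e-23), and its mean FPKM was 1657 times as high in shoots.

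On the root side, Zm00001d017508 (381 bases) had 0 reads in all 3 shoot libraries and 1164, 1365 and 1386 FPKM in roots. A limit of 3 reads over the 3 shoot libraries is 0.102 FPKM, so the level was at least 12759-fold lower in shoots than the 1305 ± 123 FPKM of roots (SD, n = 3). Zm00001d029859 (402 bases) had 0.187, 0 and 0.508 FPKM in shoots, from 2, 0 and 5 reads, against 1344, 1562 and 1569 FPKM in roots. Its log2 difference was -10.26 with SE 0.13 (limma, adjusted p = 1.34e-24). Both fell short of 1 FPKM in every shoot library while ranking among abundant root features.

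Detection in a single tissue was more common in roots. At least 1 FPKM in every library of a tissue and 0 reads in every library of the other was met by 102 features in shoots and 493 in roots. Their median levels were near each other, at 4.13 FPKM for the shoot features and 4.88 FPKM for the root features. The highest mean was 162 FPKM among the shoot features and 1305 FPKM among the root features. A count of 0 allows a median of 0.0407 FPKM in roots for the shoot features and 0.0348 FPKM in shoots for the root features. With up to 0.1 FPKM allowed in the other tissue, the counts became 282 for shoots and 985 for roots. At a minimum of 5 FPKM they were 42 and 232. Roots exceeded shoots under each of these limits. All limits were applied to FPKM as deposited, and counts after scaling were not taken.

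Part of this single-tissue detection was met again in libraries outside the comparison. The rule there was looser, a value above 0 in every library of the tissue and 0 in every library of the other. The minimum of 1 FPKM was not asked for. Of the 102 shoot features, 54 met this looser rule in ST under salinity, and 48 had a read in a root library there. In SS under water 37 met it and 49 had a root read, while 12 had 0 reads in SS shoots. Of the 493 root features, 364 met the looser rule in ST under salinity and 125 had a read in a shoot library. In SS 250 met it and 223 had a shoot read, while 13 had 0 reads in SS roots. A difference between the shoot and root features in how often they held was not tested.

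By identifier class, the gene models make up most of the tested features and sit near the shares over all of them, 21.5% higher and 41.3% lower. Of 26483 tested Zm00001d features, the main gene models, 21.1% were higher in shoots and 43.3% lower, with a median log2 difference of -0.57 as deposited and -0.04 after scaling. Of 2346 tested transcript models that the deposited tables add to the reference set, 27.3% were higher (against 21.5% of all features) and 22.3% lower (against 41.3%), with medians of -0.005 and 0.02. The split of calls on these added models turned with the scaling, since higher calls were 42.2% of those as deposited and 62.6% after scaling. Added models took 1.48, 1.49 and 1.44% of reads in shoots, against 1.42, 1.42 and 1.37% in roots. Those ranges did not overlap but differed little. ENSRNA features, which carry noncoding RNA identifiers, took 0.0172, 0.0186 and 0.0202% of reads in shoots, against 0.0563, 0.0520 and 0.0489% in roots, also without overlap. The exact two-sided permutation test for the ENSRNA share gave p = 0.1, the smallest possible. Of their 269 tested members, 31 were higher in shoots (11.5%, against 21.5% of all features) and 49 lower (18.2%, against 41.3%). Their split also moved with the scaling, with 31 higher and 80 lower as deposited and 49 higher and 49 lower after scaling.

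MicroRNA genes are the named members of the data. A microRNA gene is transcribed into a precursor that folds back on itself and is cut in the nucleus to a short mature RNA, which guides an Argonaute protein to matching messengers. In plants most conserved families act on transcription factors or signalling proteins of development and nutrition. The libraries measured reads on precursor loci, not mature microRNAs. Of 154 precursors listed, 34 had a read in the 6 libraries: 19 in both tissues, 6 in shoots alone and 9 in roots alone. The test covered 23, of which 21 had a read in these libraries. Those 23 were 78 to 270 bases long, 17 of them shorter than a read of 150 bp, and 13 had under 10 reads in every one of the 6 libraries. Which transcripts gave such reads was not tested.

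Of the 23 tested precursors, 8 were higher in shoots (background 21.5%) and 3 were lower (background 41.3%) under both scalings. As deposited alone there were 8 higher and 5 lower, and after scaling 11 higher and 3 lower. The median log2 difference of the 23 was 0.03 as deposited and 0.64 after scaling, against -0.52 and -0.015 for all features. The 6 libraries did not overlap by tissue for 11 of the 23 (background 85.3%).

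**Figure D3:**
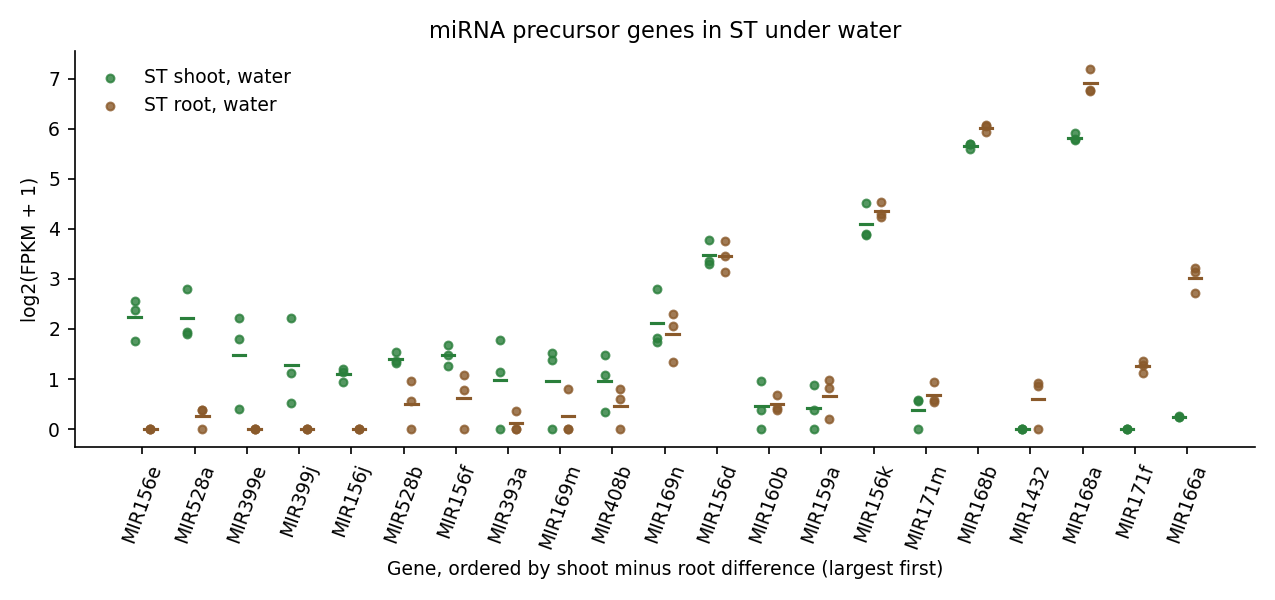
log2(FPKM + 1) of 21 microRNA precursor genes in 3 ST shoot libraries (green, left of each pair) and 3 ST root libraries (brown, right) under water. Points are libraries and bars are means; MIR156e, MIR399e, MIR399j and MIR156j sat at 0 in all root libraries, and MIR171f and MIR1432 in all shoot libraries.

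The precursors higher in shoots belonged to the families 156, 528, 399 and 393. Mature miR156 represses SPL transcription factors and holds young plants in the juvenile phase. MIR156e had 2.39, 4.91 and 4.21 FPKM in shoots, from 8, 16 and 13 reads, against 0 in all 3 root libraries. The tissues did not overlap, and with the limit of 3 reads over the root libraries the mean level was at least 12.7-fold higher in shoots. Without shoot library 2 it was at least 10.9-fold higher. Its log2 difference was 2.23 with SE 0.26 (limma, adjusted p = 6.13e-08). MIR156j had 1.2, 0.93 and 1.31 FPKM in shoots against 0 in all root libraries (limma, log2 difference 1.10, SE 0.25, adjusted p = 0.000336). Its mean was at least 3.76-fold higher, and without shoot library 3 at least 3.49-fold. MIR156f had 1.8, 1.39 and 2.2 FPKM in shoots, against 0.72, 1.12 and 0 FPKM in roots. Its difference of 0.85 on the log2 scale passed narrowly as deposited (limma, adjusted p = 0.0471, and 0.00589 after scaling) and, as deposited, did not pass without any 1 of 5 of the 6 libraries, the exception being root library 2.

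The more abundant members of that family were not called as deposited. MIR156d had 8.84, 12.7 and 9.26 FPKM in shoots, against 12.5, 10.1 and 7.74 FPKM in roots, and the tissues overlapped. Its log2 difference was 0.03 as deposited (limma, adjusted p = 0.92) and 0.64 after scaling (adjusted p = 0.0033). MIR156k had 22.0, 13.8 and 13.6 FPKM in shoots, against 22.3, 17.9 and 18.6 FPKM in roots, with log2 differences of -0.26 and 0.37 that did not pass. Without shoot library 1, MIR156k was called lower as deposited, at -0.48 (limma, adjusted p = 0.0303). As deposited, the 5 tested members summed to 33.5 ± 2.83 FPKM in shoots and 30.3 ± 4.71 FPKM in roots (SD, n = 3 each), a difference within the spread. After scaling the sums were 43.8 ± 3.32 in shoots and 24.8 ± 3.47 in roots, and the libraries did not overlap.

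The family 528 is found in monocots, and its mature form targets messengers of copper-containing enzymes such as laccases. MIR528a had 2.75, 2.83 and 5.97 FPKM in shoots, against 0, 0.3 and 0.3 FPKM in roots, where it rested on 0, 1 and 1 reads. Every shoot library was above every root library, and the log2 difference was 1.96 with SE 0.31 (limma, adjusted p = 6.22e-06). MIR528b had 1.93, 1.49 and 1.57 FPKM in shoots, against 0, 0.48 and 0.95 FPKM in roots, from 3 to 4 reads and 0 to 2 reads per library. It did not overlap either (limma, log2 difference 0.90, SE 0.20, adjusted p = 0.000337).

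Mature miR399 represses the phosphate signalling gene PHO2 when phosphate is scarce and is known in Arabidopsis to move from shoot to root. MIR399e had 3.64, 2.49 and 0.33 FPKM in shoots, from 12, 8 and 1 reads, against 0 in all root libraries. MIR399j had 3.65, 0.44 and 1.17 FPKM in shoots, from 17, 2 and 5 reads, against 0 in all root libraries. The tissues did not overlap for either, but the shoot libraries ranged widely, with library 1 highest for both. The levels were at least 7.01-fold (MIR399e) and at least 8.05-fold (MIR399j) higher in shoots, and without shoot library 1 at least 4.59-fold and at least 3.69-fold. The log2 differences were 1.48 for MIR399e (limma, adjusted p = 0.000108) and 1.29 for MIR399j (limma, adjusted p = 0.000141). MIR393a, whose family targets auxin receptors of the TIR1 class, had 1.19, 2.45 and 0 FPKM in shoots, against 0, 0 and 0.29 FPKM in roots. The tissues overlapped, the log2 difference was 0.85 (limma, adjusted p = 0.0142), and without shoot library 2 it did not pass (0.44, adjusted p = 0.155).

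The precursors lower in shoots belonged to the families 166, 168 and 171. Mature miR166 restricts HD-ZIP III transcription factors, which set the upper side of the leaf and pattern the vasculature of shoot and root. MIR166a had 0.18, 0.18 and 0.19 FPKM in shoots, from 1 read in each library, against 7.75, 5.61 and 8.31 FPKM in roots, from 41, 32 and 48 reads. No library of a tissue came near the other, and the log2 difference was -2.78 with SE 0.23 (limma, adjusted p = 1.56e-10). Mature miR171 acts on GRAS transcription factors of the SCARECROW-like group, which maintain meristems. MIR171f had 0 reads in all shoot libraries and 1.56, 1.45 and 1.19 FPKM in roots, from 6, 6 and 5 reads. The level was at least 5.56-fold lower in shoots (limma, log2 difference -1.26, SE 0.20, adjusted p = 3.93e-06), and without root library 1 at least 5.24-fold.

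Mature miR168 represses AGO1, the main Argonaute of the microRNA pathway. Its precursors were the most abundant of those tested in both tissues. MIR168a had 53.8, 54.2 and 58.9 FPKM in shoots, against 146, 108 and 107 FPKM in roots, from 146 to 150 and 302 to 376 reads. The tissues did not overlap, and root library 1 was the highest of all. The log2 difference was -1.09 with SE 0.10 as deposited (limma, adjusted p = 8.3e-10), -0.94 without root library 1 and -0.42 after scaling (adjusted p = 0.000371). MIR168b had 50.95, 47.2 and 50.6 FPKM in shoots, against 65.1, 66.1 and 60.25 FPKM in roots. It was called lower in shoots as deposited (limma, log2 difference -0.36, adjusted p = 0.0334) and stood at 0.31 after scaling, where it did not pass (adjusted p = 0.075). With voom on the recovered reads and median-of-ratios factors it passed as higher in shoots (0.31, limma, adjusted p = 0.017). After quantile scaling it stood at -0.07 and did not pass (limma, adjusted p = 0.68). Its direction rests on the choice of scaling, and as deposited the call ended without shoot library 2 or 3 or root library 1 or 2. Both precursors summed to 105 ± 4.06 FPKM in shoots and 184 ± 23.2 FPKM in roots (SD, n = 3 each) as deposited. After scaling the sums were 138 ± 6.62 in shoots and 151 ± 16.8 in roots, with overlapping libraries.

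The other tested precursors were not called under both scalings. MIR408b, of a family that targets copper proteins, had 1.79, 0.26 and 1.11 FPKM in shoots, against 0, 0.51 and 0.75 FPKM in roots, and overlapped. It was called after scaling only (0.75, limma, adjusted p = 0.0184), and not without shoot library 1 or 3 or root library 1, while without shoot library 2 it was called as deposited as well (0.81). MIR169m, of a family that targets NF-YA transcription factors, had 1.86, 0 and 1.62 FPKM in shoots, against 0, 0.74 and 0 FPKM in roots. It was likewise called after scaling only (0.91, limma, adjusted p = 0.0321). That call ended without any 1 of shoot libraries 1 and 3 and root libraries 1 and 3, and was made as deposited without shoot library 2 or root library 2. MIR1432 had 0 reads in shoots and 0.90, 0 and 0.83 FPKM in roots, so that root library 2 tied with the shoots, and was called lower as deposited (-0.60, limma, adjusted p = 0.0449), a call that ended when any 1 library other than root library 2 was left out. After scaling it did not pass (-0.52, limma, adjusted p = 0.0727), except without root library 2 (-0.77, adjusted p = 0.0117). MIR169n had 2.53, 5.94 and 2.35 FPKM in shoots, against 1.55, 3.95 and 3.19 FPKM in roots, with no call except after quantile scaling (0.86, limma, adjusted p = 0.0464). MIR159a (targets of the GAMYB group), MIR160b (auxin response factors) and MIR171m differed by -0.25, -0.04 and -0.30 on the log2 scale, and none passed. MIR164b and MIR164c, of a family that targets NAC transcription factors, had 0 reads in all 6 libraries.

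The tissue difference of ST was then read in libraries that had not entered it, those of ST under salinity and of SS under water. All libraries share a fit and its estimate of the spread. Of the 6271 features higher in shoots, 5300 (84.5%) were also higher in ST under salinity, where 21.2% of all tested features were, and 92 were lower. Of the 12040 lower in shoots, 10482 (87.1%) were lower under salinity, where 42.1% of all were, and 54 were higher. In SS, 4745 of the 6271 (75.7%) were higher, with a background of 24.9%, and 304 were lower. Of the 12040, 9267 (77.0%) were lower in SS, with a background of 41.6%, and 400 were higher.

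Of the larger differences nearly all were called again in the same direction, at any size. Of the 1905 features higher by 4-fold, 1893 (99.4%) were higher in ST under salinity and 1753 (92.0%) in SS. Of the 2293 lower by 4-fold, 2285 (99.7%) were lower in ST under salinity and 2170 (94.6%) in SS. Of the 612 features higher by 16-fold, 611 were higher under salinity and 605 in SS, and of the 442 lower by 16-fold, 442 and 433 were lower. Fewer reached the same size again. At 4-fold these were 82.4% of the higher and 81.8% of the lower in ST under salinity, and 74.1 and 65.5% in SS. At 16-fold they were 83.7% of the higher and 70.1% of the lower under salinity, and 74.0 and 49.5% in SS. The median log2 difference of the 4-fold features as deposited was 3.18 in ST under water, 3.03 in ST under salinity and 3.03 in SS for those higher. For those lower it was -3.29, -3.29 and -2.77. The members were chosen on the values of ST under water, so its medians do not stand on equal terms with the others. The part of that choice in these medians was not tested.

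**Figure D4:**
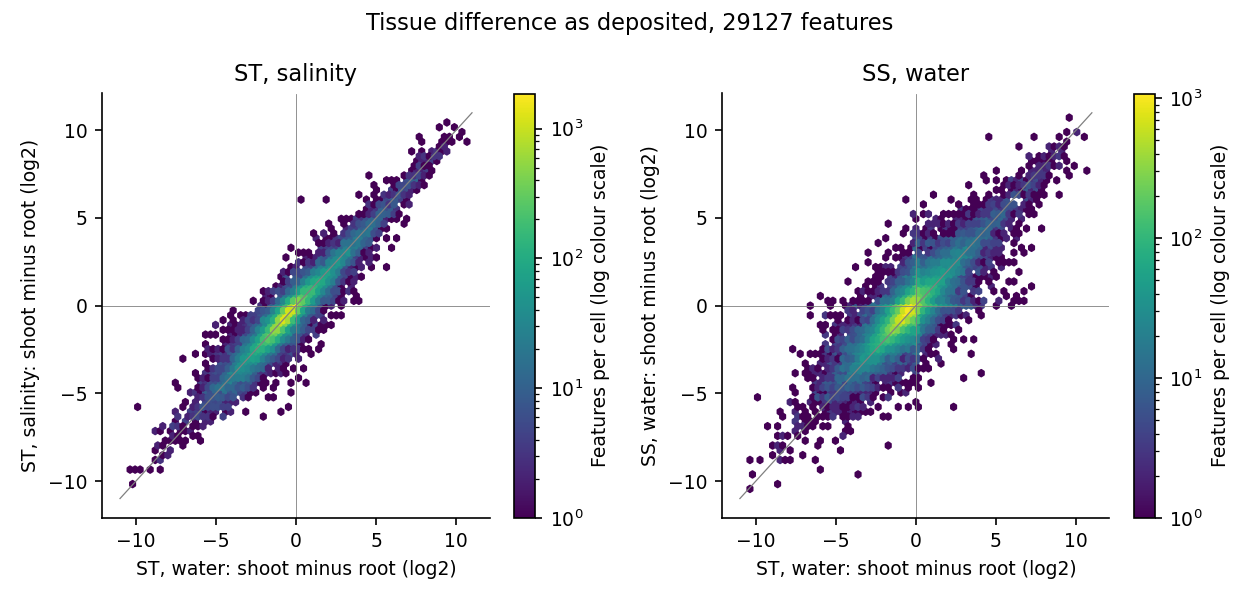
Shoot minus root difference in log2(FPKM + 1), as deposited, of 29127 features in ST under water (horizontal) against ST under salinity (left panel) and SS under water (right panel); colour is the number of features per cell on a log scale. Points lie along the grey line of equality in both panels and scatter more widely for SS.

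The panels of paired differences show few features in the quadrants of opposite sign at large size. Higher in ST shoots and lower in SS shoots were 304 features, of which 30 were at 2-fold or more in both. Lower in ST shoots and higher in SS shoots were 400, of which 34 were at 2-fold. The test of the difference itself, the tissue difference of ST minus that of SS, passed for 18776 features as deposited (64.5%) and for 18470 after scaling (63.4%). In the same direction under both scalings and at 2-fold or more it passed for 2280 features in the direction of higher in ST (7.83%) and 2684 in the direction of lower in ST (9.21%). Within ST, the tissue difference under salinity minus that under water passed for 12630 features (43.4%), in a contrast that shares 6 libraries with the main one.

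The identifier-only features kept their direction in every set. Zm00001d037513 averaged 738 ± 32.1 FPKM in shoots and 0.186 FPKM in roots of ST under salinity, and 483 ± 33 and 1.46 ± 1.03 FPKM in shoots and roots of SS under water. Zm00001d011285 averaged 7612 ± 171 FPKM in shoots and 6.72 FPKM in roots of ST under salinity, and 3326 ± 352 and 3.17 FPKM in shoots and roots of SS. Zm00001d017508 averaged 0.0362 FPKM in shoots and 651 ± 27.3 FPKM in roots of ST under salinity, and 0 and 466 ± 21.9 FPKM in shoots and roots of SS. Zm00001d029859 averaged 0.282 FPKM in shoots and 1501 ± 64.6 FPKM in roots of ST under salinity, and 0.228 and 1814 ± 32.7 FPKM in shoots and roots of SS (SD, n = 3 each).

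**Figure D5:**
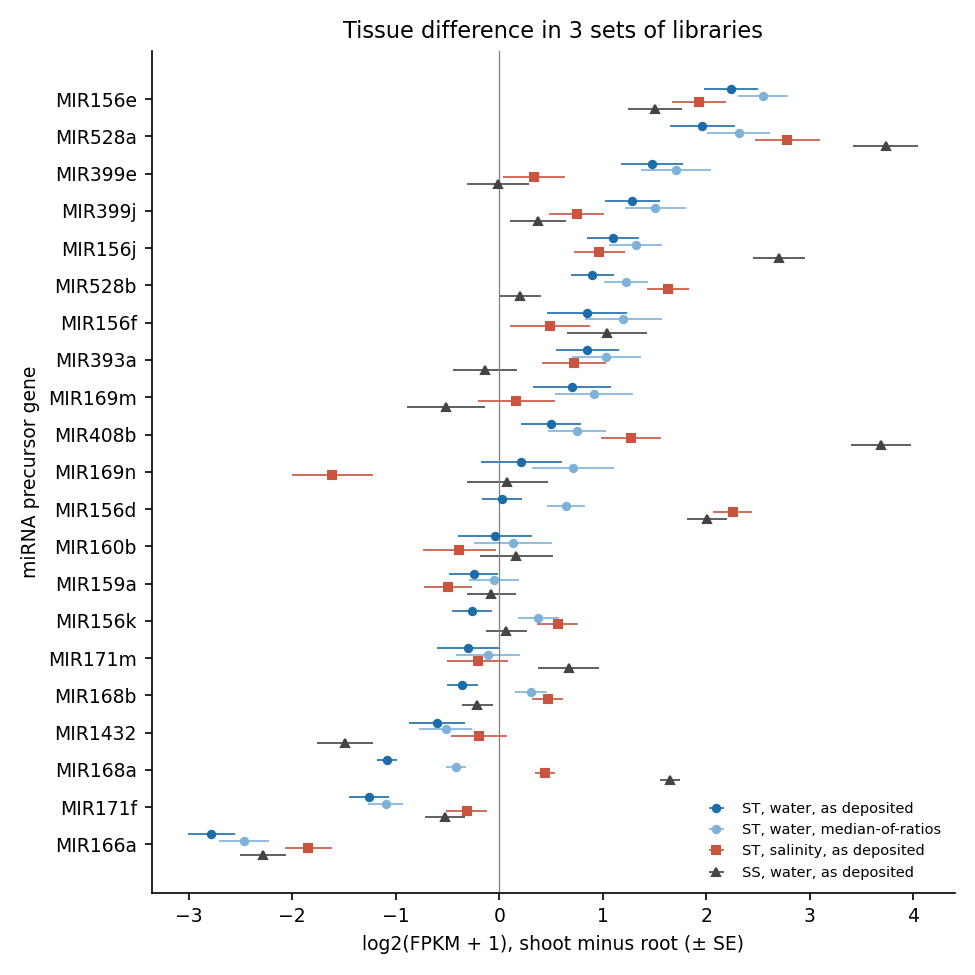
Shoot minus root difference in log2(FPKM + 1), with SE, of 21 microRNA precursor genes in ST under water (dark blue unscaled, light blue median-of-ratios scaled), ST under salinity and SS under water (as deposited). MIR166a lies left of 0 in all sets, and MIR168a lies left of 0 only in ST under water.

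Among the precursors, some held their direction in every set and some did not. MIR166a was lower in shoots in all sets, with means of 0.677 FPKM in shoots and 5.08 FPKM in roots of ST under salinity and 0.479 and 6.09 FPKM in shoots and roots of SS. MIR156e was higher in shoots in all sets, with 4.13 ± 0.73 FPKM in shoots and 0.468 ± 0.81 FPKM in roots of ST under salinity and 3.43 ± 0.68 and 0.577 ± 0.37 FPKM in shoots and roots of SS. MIR528a was higher in shoots in all sets too, and reached 32.4 FPKM in SS shoots against 1.64 FPKM in SS roots. MIR399e averaged 2.15 FPKM in shoots of ST under water, but in ST under salinity it had 0.334 FPKM in shoots and 0 in roots, and in SS 0.0996 FPKM in shoots and 0.113 FPKM in roots.

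MIR168a changed direction between the sets. It averaged 55.6 ± 2.8 FPKM in shoots and 120 ± 22 FPKM in roots of ST under water. In ST under salinity it averaged 113 FPKM in shoots and 83.4 FPKM in roots, higher in shoots by 0.44 on the log2 scale (limma, adjusted p = 0.000257). In SS under water it averaged 324 ± 22 FPKM in shoots and 102 FPKM in roots, higher in shoots by 1.65 (limma, adjusted p = 5.94e-13). The tissue difference of ST minus that of SS was -2.74 (limma, adjusted p = 2.67e-13). The root means of the sets lay between 83.4 and 120 FPKM and the shoot means between 55.6 and 324 FPKM. MIR156d, not called under water as deposited, averaged 24.2 FPKM in shoots and 4.25 FPKM in roots of ST under salinity and 16.3 and 3.4 FPKM in shoots and roots of SS. Those shoot libraries exceeded those root libraries in both sets (limma, log2 differences 2.25 and 2.01).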

How the data were processed

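Each library came with its own table, in which the authors deposited FPKM for 50202 features. TopHat2, Cufflinks and Cuffdiff are named without role or version, and the build B73 RefGen_v3, per the submitters' processing notes. Most identifiers belong to a later gene set than that build, so no coordinates are given. The sources used here do not give strand use in counting. A reference gene table (assembly Zm-B73-REFERENCE-NAM-5.0, names only) matched 153 of 154 zma-MIR features and 0 others. The members and lists were chosen with earlier results of these data known. All 22 gene lists by name had 0 matched members and are not reported.

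Whole reads were recovered from the deposited FPKM: a length per feature and a total per library turned all values of 100% of 40811 detected features into whole reads within 0.002. The smallest length that fitted was taken, which could understate the length and reads of a feature. The recovered values give depth, read shares and floors, which cover counting error only. The sources used here do not say if a count is a read or a fragment.

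Differences were tested with limma 3.58.1 (R 4.3.3) on log2(FPKM + 1), moderated variances with trend, 1 fit of 8 group means over 24 libraries, Benjamini-Hochberg over 29127 features and a threshold of 0.05. Fold changes on this scale understate changes of low features. The scripts were tested on simulated data. Alternatives were median-of-ratios and quantile scaling, a pseudocount of 0.1, filters of any value above 0 and of 5 FPKM in 3 libraries, fits of 6 and 12 libraries, voom on recovered reads, a replicate block and leaving out each library. Named were all tested precursors and, per direction, the 2 identifier-only features with the largest change, a mean of at least 5 FPKM, calls under both scalings and no overlap. The labels call the libraries biological replicates, with no word on plants. The p-values thus set a difference against the spread between replicate libraries, estimated over all 24, and not against a known spread between plants. Python 3.11.15, numpy 2.4.6, pandas 2.3.3, scipy 1.17.1 and matplotlib 3.10.9 were used.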

Additional observations from a re-analysis of the deposited data

Results flagged for a closer look

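The results here are those whose tissue difference itself differed between sets of libraries by an interaction term in limma (adjusted p under 0.05), all as log2 differences of log2(FPKM + 1) as deposited. Between the cultivars under water, ST minus SS, 18776 features differed (64.5% of the tested), so such a difference is not particular to the precursors. Among the microRNA precursors the difference was more toward shoots in ST for MIR164b (3.82), MIR399e (1.49), MIR169m (1.22), MIR399j (0.91), MIR1432 (0.89) and MIR528b (0.70). MIR164b had 0 reads in ST and averaged 1.40 FPKM in shoots and 31.5 FPKM in roots of SS, so its value is that of SS alone. It was more toward roots in ST for MIR408b (-3.19), MIR168a (-2.74), MIR156d (-1.98), MIR528a (-1.77), MIR156j (-1.61), MIR171m (-0.97), MIR171f (-0.73) and MIR164c (-0.45), of which MIR164c also had 0 reads in ST. MIR408b averaged 1.05 FPKM in shoots and 0.42 FPKM in roots of ST under water, against 103 and 7.17 FPKM in shoots and roots of SS. MIR171m, MIR1432 and MIR169m passed narrowly as deposited (limma, adjusted p = 0.0471, 0.0481 and 0.0498). After median-of-ratios scaling MIR1432 did not pass (0.79, adjusted p = 0.0656).

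Within ST, salinity minus water, 12630 features differed (43.4% of the tested). Among the precursors the tissue difference was more toward shoots under salinity for MIR156d (2.23), MIR168a (1.53), MIR171f (0.94), MIR166a (0.94), MIR156k (0.83), MIR168b (0.82) and MIR528b (0.73). It was more toward roots for MIR169n (-1.82) and MIR399e (-1.14). MIR528b did not pass after scaling (0.67, adjusted p = 0.0733). This contrast was added after the data were seen.

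Of the identifier-only features, Zm00001d037513 differed by 3.02 between the cultivars and by -1.42 between salinity and water. Zm00001d011285 differed by 0.83 between the cultivars. Zm00001d017508 differed by -1.48 between the cultivars and by 1.05 between salinity and water.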

How the results depend on the processing

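The count of features called between ST shoots and roots stayed within 1.5 times of 24786 under every alternative run, while its split by direction moved with the scaling. Higher in shoots were 10927 after median-of-ratios scaling, 10736 after quantile scaling, 11017 with voom and median-of-ratios factors and 10563 to 10710 when 1 library was also left out, against 6271. Lower in shoots were 12040, 11974 with voom and those factors and 11669 to 11797 with 1 library left out, against 18515. At 2-fold, lower in shoots were 5300 after median-of-ratios scaling, 5557 after quantile scaling and 5186 to 5326 with 1 library left out, against 8881. Higher by 2-fold were 3562, against 5029 after scaling, 4428 with voom and 6207 with voom and those factors, a setting that changes both choices at once. Median-of-ratios scaling multiplies all values of a library by a single factor, which by construction moves the differences one way. Leaving out 1 library without scaling gave 24282 to 24363 calls. Of the precursors called as deposited, only MIR168b turned its sign. It stood at 0.31 after median-of-ratios scaling (0.28 to 0.34 with 1 library also left out) and passed at 0.31 with voom and those factors (limma, adjusted p = 0.017), while voom without them gave -0.36 (adjusted p = 0.00647). Quantile scaling left MIR168b at -0.07, where it did not pass (limma, adjusted p = 0.68). MIR156d, called after scaling, stood as deposited at -0.12 without shoot library 2 and at -0.13 without root library 3. MIR156k, called as deposited without shoot library 1, stood at 0.37 after scaling. The cause was not tested. With all values above 0 admitted, MIR156f, MIR1432 and MIR168b did not pass, MIR156f and MIR393a did not with a pseudocount of 0.1, and MIR156f did not in the fit of 12 ST libraries. The 4 identifier-only features passed in the same direction under every alternative run. They were chosen in these same libraries for size and calls under both scalings, so this describes the choice.

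Replicate numbers are shared by the tissues. Deviations of same-numbered libraries correlated at 0.0192, -0.0448 and 0.0101, and those of differently numbered ones at -0.0546 to 0.0541. The labels do not say if same-numbered libraries came from the same seedlings, and this was not tested. With the replicate block there were 6265 features higher and 18482 lower, and with the block and median-of-ratios scaling 10870 higher, 11978 lower and 5300 lower by 2-fold. With the block MIR168b did not pass, and it stood at 0.31 with block and scaling. With both, MIR1432 passed (-0.52, limma, adjusted p = 0.0294) and MIR169m did not (0.91, adjusted p = 0.0652).

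Single-tissue detection depended on its limits: 42 features in shoots and 232 in roots at 5 FPKM, 282 and 985 with up to 0.1 FPKM elsewhere, and 105 to 143 and 508 to 617 with 1 library left out, against 102 and 493. The share of 2-fold calls met again in the same direction lay between 91.5 and 98.9% in ST under salinity and between 81.7 and 92.5% in SS across all settings. Depth is a limit for the precursors, of which 13 of 23 had under 10 reads in each library.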

Other observations

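Another 13 microRNA precursors had a read in the 6 libraries without reaching the minimum for the test. Their highest value was 1.40 FPKM and none had more than 4 reads in a library. Precursors with any read numbered 20, 21 and 19 in the shoot libraries and 16, 23 and 21 in the root libraries, so detection overlapped between the tissues.

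The class of GRMZM5G identifiers had 174 features, of which 6 were tested. None of the 6 was called higher in shoots (21.5% of all features were), and 4 were called lower under both scalings (41.3% of all features were).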
